A study of Mus musculus with 6 samples.

Results

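The vascular endothelial growth factor (VEGF) system was examined in cultured mouse skull osteoblasts through its 5 ligand genes (Vegfa, Vegfb, Vegfc, Vegfd and Pgf), its 3 tyrosine kinase receptor genes (Flt1, Kdr and Flt4) and its 2 co-receptor genes (Nrp1 and Nrp2). The genes were taken by symbol from the deposited count table, and the rule uses no measured value, although the family was chosen with earlier results of these data known. They make up 10 of 17830 genes in the table, and all 10 were among the 13484 genes that passed the filter on low counts. RNA sequencing libraries came from 3 control samples (mOCN-Cre; Ai9) and 3 APPswe samples (TgAPPswemOCN-Cre; Ai9) of mice aged 6 months. Calvarial bone chips were digested and cultured until cells grew out, and the tdTomato-positive cells were sorted by flow cytometry before RNA was extracted. Both genotypes carry the mOCN-Cre knock-in, in which Cre is made from the osteocalcin locus, and the Ai9 reporter, which turns on the red protein tdTomato in cells that have or had Cre. APPswe samples carry in addition a human amyloid precursor protein transgene with the Swedish mutation, driven by the ubiquitous CAG promoter once Cre has removed a stop cassette. The comparison asks how transcripts of osteoblast-lineage cells differ when the mutant protein is made in them. The labels do not say that the 3 libraries of a group came from separate mice or cultures, so the p-values measure only the spread between these samples, which may be technical.

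Total counts were 17649704 to 18398392 in the control libraries and 17263757 to 17555489 in the APPswe libraries. Control replicate 2 stood apart. Its biological coefficient of variation against the other control libraries was 0.344 and 0.348, whereas those 2 differed from each other by 0.0664 and the APPswe libraries among themselves by 0.0201 to 0.0790. Control replicates 1 and 3 differed from the APPswe libraries by 0.312 to 0.329, less than from control replicate 2. Control replicate 2 held 2 counts over 4 Y-linked genes against 2257 to 3406 in the other 5 libraries, although the study describes male mice, and 1 count of the osteoblast gene Bglap against 115 to 204. The labelled cell type was mixed by its markers in every library. Col1a1, the main collagen of bone matrix, stood at 3585 to 5705 CPM (read counts relative to TMM-scaled library size), but the macrophage gene Lyz2 stood at 7148 to 16085 CPM, and Bglap, Ibsp and Alpl were at 0.0562, 0.169 and 1.97 CPM in control replicate 2. Each result that turns on this library is therefore given with and without it.

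VEGF ligands are secreted dimers that act on receptor tyrosine kinases, mostly on the endothelial cells that line vessels. VEGF-A signals chiefly through VEGFR2 (the product of Kdr) and also binds VEGFR1 (Flt1), which holds ligand with high affinity but signals weakly. VEGF-B and placental growth factor bind VEGFR1, and VEGF-C and VEGF-D act through VEGFR3 (Flt4), best known in lymphatic vessels. The neuropilins bind both VEGFs and class III semaphorins and present ligand to the kinases. In bone, osteoblast-lineage cells are a known source of VEGF-A, which links the growth of vessels to the formation of bone.

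A member was called when edgeR's quasi-likelihood test gave a Benjamini-Hochberg adjusted p of at most 0.05 over all genes tested and a log2 fold change of at least 1 in size. One ligand, Vegfa, was called higher in APPswe, against a background of 3.74% of all genes tested. The 4 members called lower were the ligand Vegfb and the 3 receptors Flt1, Kdr and Flt4, against a background of 3.60%. With the adjusted p alone, Nrp1 and Nrp2 joined them, so that 6 members were lower and 1 was higher, where 12.0% and 10.5% of all genes tested were. Every control library lay on one side of every APPswe library for 1 member that was higher and 6 that were lower, against 22.8% and 22.2% of all genes tested. The median log2 fold change was 0.087 over the ligands, -2.45 over the receptors and -0.78 over the neuropilins, beside -0.0033 over all genes tested. Without control replicate 2, Pgf was called as well, giving 1 member higher and 5 lower against backgrounds of 4.87% and 6.58%, and the medians were -0.10, -1.97 and -0.73.

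**Figure D1:**
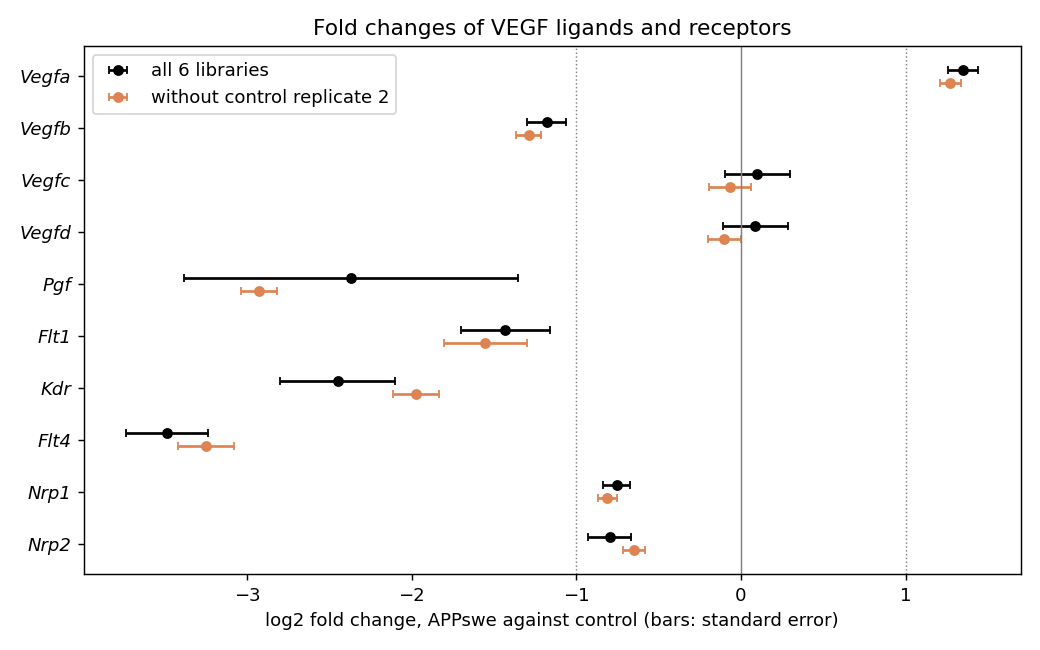
Log2 fold change of each VEGF gene in APPswe against control (x axis), with bars of 1 standard error, from all 6 libraries (black) and without control replicate 2 (orange); dotted lines mark a log2 fold change of 1 in size. Vegfa is the one gene to the right of the dotted lines, at 1.35, and the 3 receptor genes lie to the left of them, while the bar of Pgf shortens once control replicate 2 is left out.

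The sequence before a transcript start of 4 of the called genes is shown so that the promoter letters can be set beside their directions. Each run is the 250 bases upstream of the transcript start in RefSeq on GRCm38.p6, 5′ to 3′ on the strand of the gene. The windows of Flt1 and Kdr lie inside the span given for the gene in the text, since the start they precede is not its outermost one. Capitals mark the GC box GGGCGG, to which Sp1-family factors bind, and the ETS motif CCGGAA, on either strand. CCGCCC and TTCCGG are thus the same motifs read on the other strand.
Vegfa, chr17:46032378-46032627, minus strand: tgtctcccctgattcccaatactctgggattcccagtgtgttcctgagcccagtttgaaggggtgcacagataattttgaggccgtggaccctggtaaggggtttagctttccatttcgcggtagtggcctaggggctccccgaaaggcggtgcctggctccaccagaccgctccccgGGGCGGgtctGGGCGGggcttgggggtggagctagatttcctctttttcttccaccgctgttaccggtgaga
Vegfb, chr19:6987652-6987901, minus strand: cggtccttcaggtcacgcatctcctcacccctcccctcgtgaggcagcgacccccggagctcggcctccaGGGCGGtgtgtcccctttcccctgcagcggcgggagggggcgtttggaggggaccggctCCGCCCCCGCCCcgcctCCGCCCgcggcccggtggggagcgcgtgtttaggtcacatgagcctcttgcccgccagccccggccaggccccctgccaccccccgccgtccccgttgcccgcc
Flt1, chr5:147726012-147726261, minus strand: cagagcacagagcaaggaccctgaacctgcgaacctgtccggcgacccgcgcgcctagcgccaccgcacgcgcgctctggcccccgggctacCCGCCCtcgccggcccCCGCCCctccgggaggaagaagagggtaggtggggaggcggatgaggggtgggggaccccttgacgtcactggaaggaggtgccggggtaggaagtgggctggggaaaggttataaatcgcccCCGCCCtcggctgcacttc
Kdr, chr5:75978456-75978705, minus strand: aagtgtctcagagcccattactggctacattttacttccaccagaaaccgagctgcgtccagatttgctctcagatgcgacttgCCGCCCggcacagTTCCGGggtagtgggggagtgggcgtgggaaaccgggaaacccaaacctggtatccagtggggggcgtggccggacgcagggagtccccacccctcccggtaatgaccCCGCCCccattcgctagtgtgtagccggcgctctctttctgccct

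The GC box lay in 9 of the 10 members' windows, against 32.7% of 32851 mouse windows of this length, and Vegfd was the member without it. The 9 windows held 59.2 to 76.4% G and C and that of Vegfd 42.4%, beside a median of 52.4% over all windows. The share of 32.7% is not matched for this, so the count is not a trait of VEGF genes as such. Vegfa, which was higher, held it 72 and 62 bases before its start. Kdr, which was lower, held it 166 and 45 bases before its start, so the box was shared by genes of both directions. The ETS motif CCGGAA, read by a family of factors active in endothelial cells, was in the Kdr window, 153 bases before the start, and in no other member's. This count of 1 in 10 lies near the 12.0% of all windows. Shorter ETS matches such as GGAA, which every printed window holds when both strands are read, were not counted. The core ACGTG of the hypoxia response element, searched on both strands, was in 0 of the 10 windows against 16.6% of all. With 10 windows of 250 bases, a count of 0 does not show that these genes lack the element. Sequence farther upstream was not searched. A match here is a match of letters in 250 bases, and it says nothing of whether a factor was bound. The window of Flt4 falls within an exon annotated by GENCODE and is not printed. All 250 bases of the window of Pgf, which was not called, are exon sequence as well.

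Vegfa, the ligand that drives most vessel growth, spans chr17:46016993-46032377 (GRCm38.p6, minus strand). It stood at 95.8, 79.3 and 93.3 CPM in control replicates 1, 2 and 3 and at 226, 230 and 228 CPM in APPswe replicates 1, 2 and 3. The APPswe libraries were all above the control libraries and lay close together. The means were 89.5 ± 8.90 and 228 ± 2.14 CPM (SD, n = 3 each), a 2.55-fold rise with a log2 fold change of 1.35 ± 0.091 (SE) and an adjusted p of 0.000524. Leaving out each library in turn kept the call in 6 of 6 fits, with log2 fold changes of 1.27 to 1.40. In bulk RNA, a change in the number of cells that make a transcript and a change in the transcript per cell cannot be told apart, here or in the results that follow.

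Vegfb, whose product binds VEGFR1 and is linked to fatty acid handling by vessels, spans chr19:6982472-6987651 (minus strand). Its values were 57.5, 44.2 and 56.6 CPM in the control libraries and 22.1, 24.2 and 23.5 CPM in the APPswe libraries. The groups did not overlap, and control replicate 2 was the nearest of its group to APPswe. The means of 52.8 ± 7.40 and 23.3 ± 1.03 CPM gave a log2 fold change of -1.18 ± 0.12 (SE) with an adjusted p of 0.00165. Vegfb thus fell while Vegfa rose, and its call was kept in all 6 fits without a library, at -1.29 to -1.12.

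Vegfc and Vegfd, the ligands of VEGFR3, did not pass the test. Vegfc (chr8:54077532-54186454, plus strand) held 141, 91 and 128 counts in the control libraries and 125, 127 and 140 in the APPswe libraries, and the groups overlapped. The test gave a log2 fold change of 0.10 ± 0.20 (SE), adjusted p 0.752. Vegfd (chrX:164373522-164402650, plus strand) held 508, 316 and 480 counts in control and 522, 425 and 460 in APPswe, again with overlap. Here the log2 fold change was 0.087 ± 0.20, adjusted p 0.785. In both genes control replicate 2 was the lowest library, and without it the log2 fold changes turned to -0.067 and -0.10.

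Pgf, placental growth factor, a VEGFR1 ligand (chr12:85166637-85177785, minus strand), was decided by 1 library. It stood at 30.8 and 28.5 CPM in control replicates 1 and 3, at 0.787 CPM in control replicate 2, and at 3.59, 3.96 and 4.10 CPM in the APPswe libraries. Control replicate 2 thus lay below every APPswe library, and the other control libraries lay above. Over all 6 libraries the log2 fold change was -2.37 ± 1.01 (SE) and Pgf did not pass the test, with an adjusted p of 0.141. Without control replicate 2 it was -2.93 with an adjusted p of 1.23e-08, and the 5 other fits that left out a library did not call it.

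**Figure D2:**
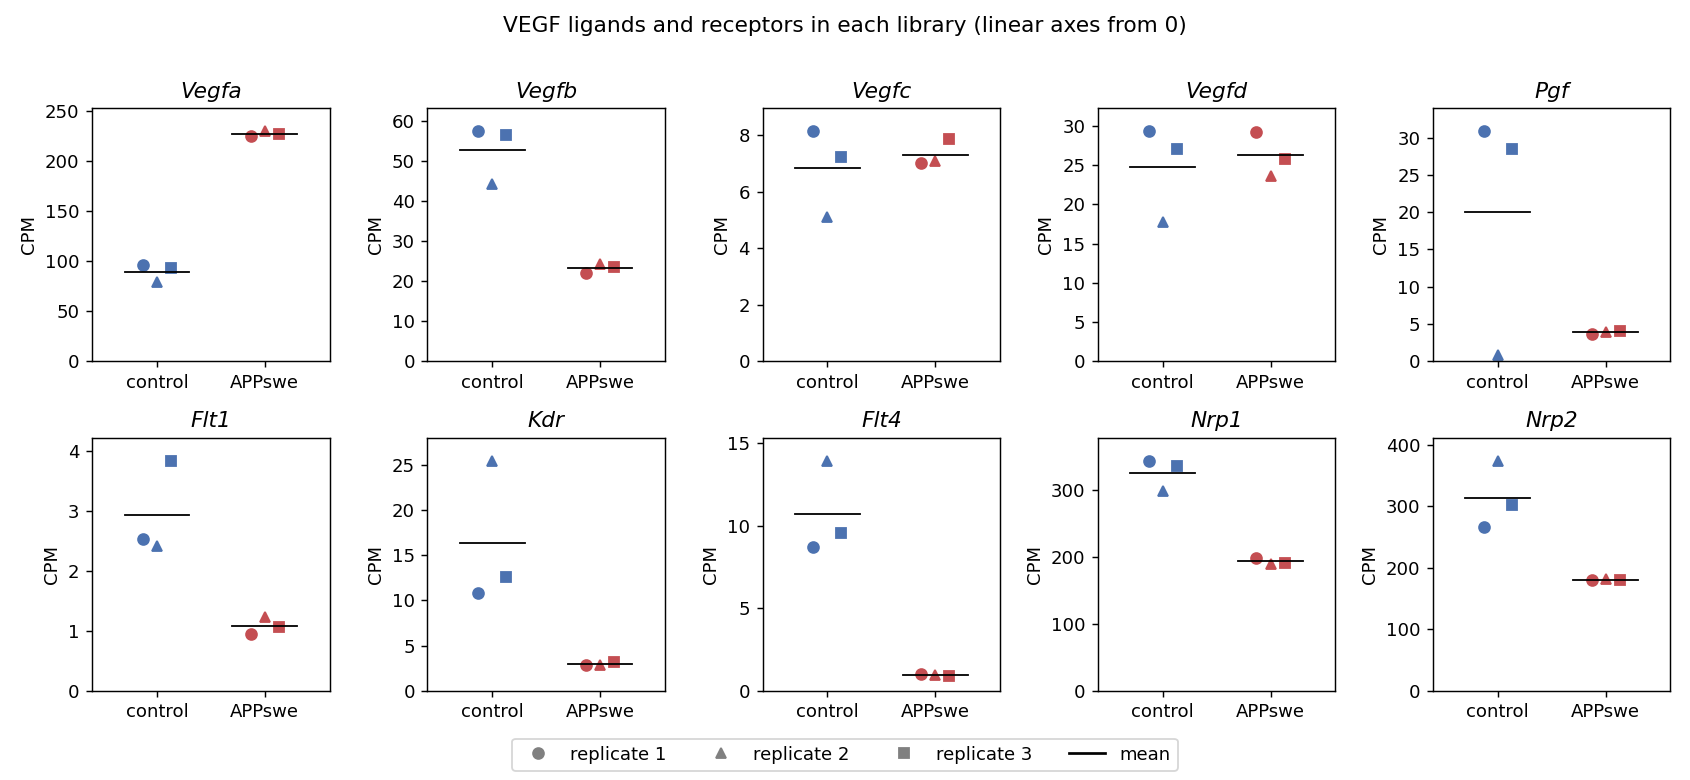
CPM of each VEGF gene (y axes, linear from 0, a scale of its own for each gene) in the 3 control (blue) and 3 APPswe (red) libraries; marker shape gives the replicate number and the line the group mean. Control replicate 2 (blue triangle) is the highest library for Kdr (25.5 CPM), Flt4 and Nrp2 and the lowest for Pgf (0.787 CPM), and the groups are apart for Vegfa, Vegfb, Nrp1, Nrp2 and the 3 receptors.

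Flt1 encodes VEGFR1, and its soluble form is a decoy for VEGF-A (chr5:147561604-147726438, minus strand). It was the receptor with the fewest counts in the control libraries, 44, 43 and 68, and held 17, 22 and 19 in the APPswe libraries. These counts are above the floor of 3 counts (0.167 to 0.173 CPM), and the groups did not overlap. The means were 2.93 ± 0.787 and 1.08 ± 0.137 CPM, with a log2 fold change of -1.43 ± 0.27 (SE) and an adjusted p of 0.0130. The call was the least steady of the 4. It was lost without APPswe replicate 1 (adjusted p 0.0666), replicate 2 (0.0593) or replicate 3 (0.0721), where the log2 fold change stayed between -1.53 and -1.35.

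Kdr encodes VEGFR2, the main signalling receptor for VEGF-A (chr5:75932827-75979072, minus strand). It held 188, 453 and 224 counts in the control libraries and 51, 52 and 57 in the APPswe libraries, or 10.9, 25.5 and 12.6 against 2.86, 2.90 and 3.20 CPM. The APPswe libraries were all below the control libraries, of which replicate 2 was the highest. Kdr fell, with a log2 fold change of -2.45 ± 0.35 (SE) and an adjusted p of 0.00503. Without control replicate 2 it was -1.97 with an adjusted p of 1.12e-06, and all 6 fits without a library kept the call.

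Flt4, the VEGFR3 gene (chr11:49609679-49652739, plus strand), had the largest fold change of the 10 genes. Its counts were 151, 248 and 169 in the control libraries and 18, 17 and 16 in the APPswe libraries, which correspond to 8.72, 13.9 and 9.54 CPM against 1.01, 0.947 and 0.899 CPM. The groups were far apart, and control replicate 2 was again the highest library. Flt4 fell, with a log2 fold change of -3.49 ± 0.25 (SE) and an adjusted p of 0.000600, and of -3.25 without control replicate 2. All 6 fits without a library kept the call.

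The neuropilins fell by less than 1 on the log2 scale and so were not called, although both passed the test. Nrp1, a co-receptor for VEGF-A and a receptor for SEMA3A (chr8:128358591-128505476, plus strand), held 5939, 5292 and 5951 counts in control and 3537, 3394 and 3401 in APPswe. Its means were 325 ± 24.5 and 193 ± 4.85 CPM, with a log2 fold change of -0.75 ± 0.082 (SE) and an adjusted p of 0.00200. Nrp2, which partners VEGFR3 in lymphatic vessels (chr1:62703317-62818692, plus strand), held 4609, 6657 and 5352 counts in control and 3216, 3271 and 3194 in APPswe. Its means were 314 ± 55.0 and 181 ± 1.41 CPM, with a log2 fold change of -0.80 ± 0.13 (SE) and an adjusted p of 0.00755. The groups did not overlap for either gene. The largest adjusted p over the fits that left out a library was 0.0228 for Nrp1 and 0.0486 for Nrp2.

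Levels of different genes were compared in FPKM, the deposited values that allow for transcript length. In control, Nrp1 (56.0 ± 4.12 FPKM), Vegfb (52.1 ± 7.37) and Nrp2 (50.7 ± 9.18) led and differed from each other by less than their spread. Vegfa followed at 31.2 ± 3.50 FPKM, then Vegfd at 15.8 ± 3.60 and Pgf at 15.4 ± 12.8, which could not be ordered. Vegfc (4.09 ± 0.927), Kdr (2.81 ± 1.39) and Flt4 (1.88 ± 0.50) came next, each within the spread of its neighbour, and Flt1 was lowest at 0.447 ± 0.116 FPKM. Mean levels of the kinases were below those of every ligand and neuropilin, but in control replicate 2 Kdr (4.41 FPKM) exceeded Vegfc (3.08) and Pgf (0.76), and Flt4 (2.45) exceeded Pgf. In APPswe, Vegfa moved from the fourth place to the first, at 84.7 ± 1.06 FPKM. It was followed by Nrp1 (34.9 ± 1.13), Nrp2 (29.8 ± 0.343), Vegfb (24.3 ± 0.865) and Vegfd (17.8 ± 2.05), which stood apart from each other by more than their spread. Vegfc (4.63 ± 0.272) and Pgf (3.31 ± 0.187) lay below these, and Kdr was at 0.54 ± 0.0346 FPKM. Flt1 (0.177 ± 0.0252) and Flt4 (0.173 ± 0.0153) were lowest and not separable.

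The summed level of the ligands overlapped between the groups, while their shares of it did not for Vegfa and Vegfb. The 5 ligands added up to 139, 86.6 and 130 FPKM in the control libraries and 137, 134 and 134 FPKM in the APPswe libraries, so the groups overlapped. Vegfa made up 26.9 ± 4.0% of the sum in control and 62.9 ± 0.565% in APPswe, and Vegfb 44.8 ± 4.99% and 18.0 ± 0.842%. Vegfd took 13.4 ± 0.317% and 13.2 ± 1.36%, and Vegfc 3.46 ± 0.135% and 3.43 ± 0.225%. The ligand with the largest share was thus Vegfb in every control library and Vegfa in every APPswe library. The 3 kinases added up to 3.8, 7.23 and 4.38 FPKM in control and to 0.860, 0.890 and 0.920 FPKM in APPswe. Within that sum, the share of Flt4 was 37.3 ± 3.21% and 19.5 ± 2.38%, that of Flt1 9.54 ± 4.11% and 19.8 ± 2.53%, and that of Kdr 53.2 ± 6.77% and 60.6 ± 2.31%. Kdr remained the most abundant kinase in each of the 6 libraries.

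**Figure D3:**
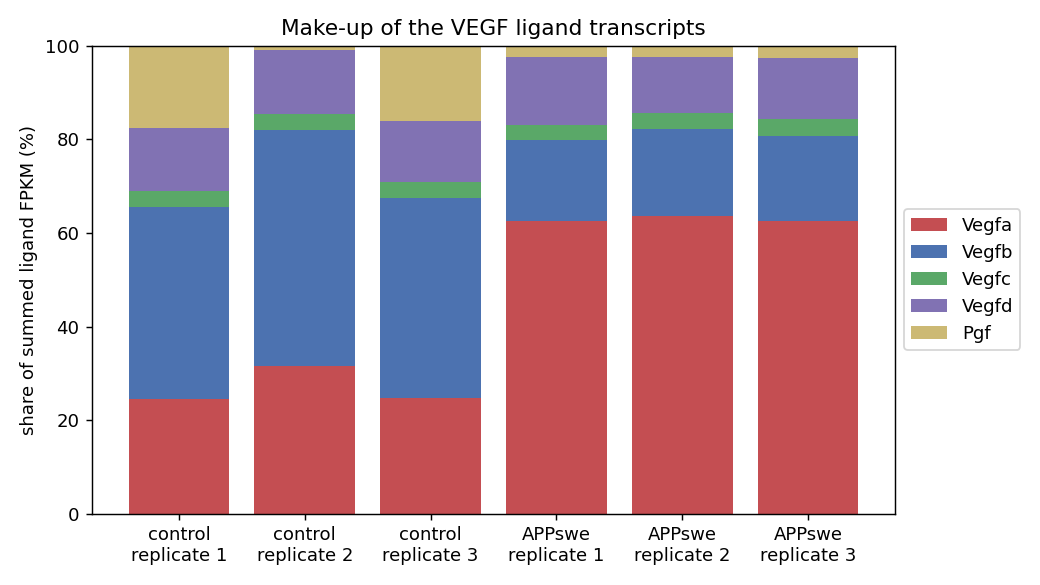
Share of each ligand in the summed FPKM of the 5 VEGF ligands (y axis, percent) in each of the 6 libraries (x axis). Vegfa (red) takes 62.9% on average in APPswe and 26.9% in control, Vegfb (blue) takes the largest share in each control library, and Pgf (yellow) is nearly absent from control replicate 2, at 0.878%.

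The ratio of a ligand to its receptor within a library, in FPKM, did not overlap between the groups in 4 of the 6 pairs examined. These ratios restate the single genes and add no further evidence. Vegfa had already parted from Kdr and Flt1 in direction. Vegfc and Vegfd moved by 0.10 and 0.087 on the log2 scale, so their ratios follow the fall of Flt4 by 3.49. The log2 ratio of Vegfa to Kdr was 4.18, 2.63 and 3.90 in the control libraries and 7.36, 7.35 and 7.17 in the APPswe libraries. The groups were apart, and the means of 3.57 ± 0.83 and 7.30 ± 0.11 correspond to ratios of 11.9 and 157 on the linear scale. The ratio of Vegfa to Flt1 was higher by 2.77 on the log2 scale, that of Vegfc to Flt4 by 3.61 and that of Vegfd to Flt4 by 3.60, with no overlap between the groups in any of these. For Vegfb and Flt1, which both fell, the mean log2 ratio was 6.89 ± 0.30 in control and 7.11 ± 0.16 in APPswe, and for Pgf and Flt1 it was 4.06 ± 2.65 and 4.24 ± 0.19. In those 2 pairs the groups overlapped. For Pgf and Flt1 the overlap came from control replicate 2, at a log2 ratio of 1.04 against 5.96 and 5.18 in the other control libraries. Without it the control mean was 5.57 and both remaining control libraries lay above the APPswe libraries, which were at 4.02 to 4.40. An exact two-sided permutation test of 3 libraries against 3 cannot give a p below 0.1, so no p is given for a ratio.

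**Figure D4:**
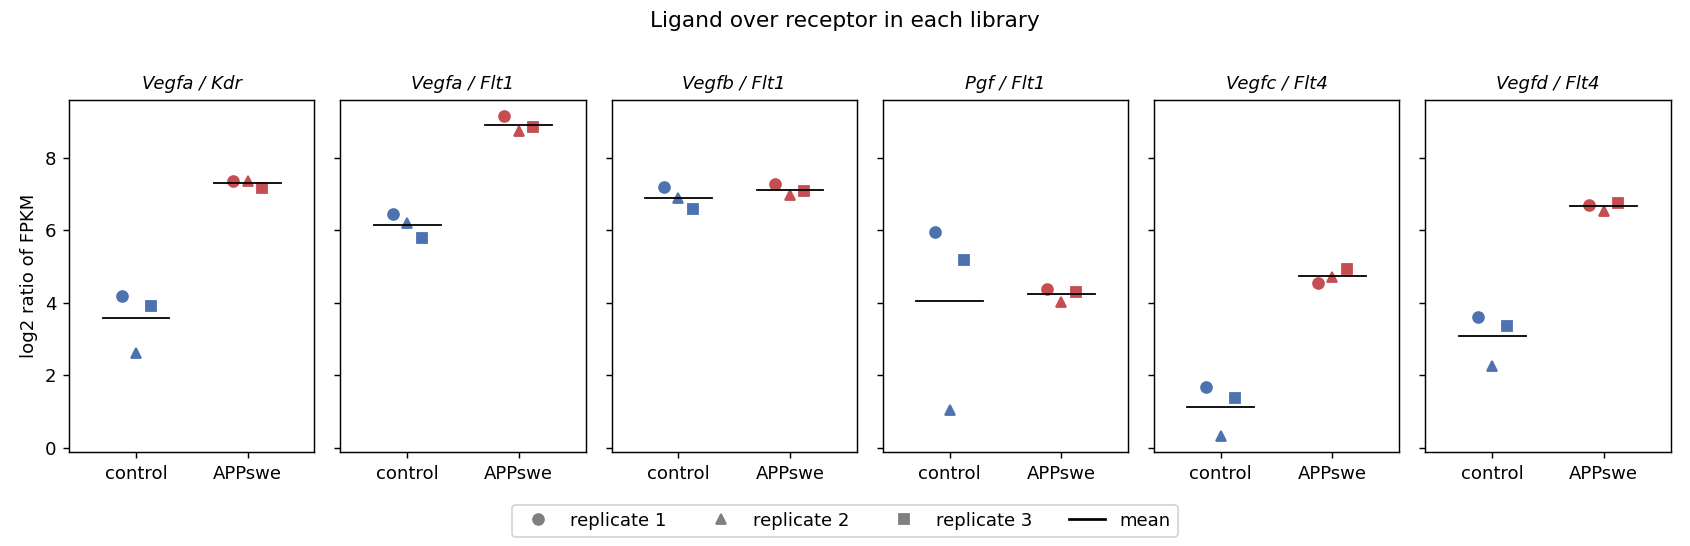
Log2 ratio of ligand FPKM to receptor FPKM (y axis, shared) for 6 ligand and receptor pairs in the 3 control (blue) and 3 APPswe (red) libraries; marker shape gives the replicate and the line the mean. The Vegfa to Kdr ratio averages 3.57 in control and 7.30 in APPswe with no overlap, whereas the Vegfb to Flt1 and Pgf to Flt1 ratios overlap.

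Because the receptors are best known from endothelial cells, their values were set beside 15 endothelial markers. The summed level of the markers was 306, 61.7 and 329 CPM in control replicates 1, 2 and 3 and 27.7 to 31.0 CPM in APPswe. Of the 9 markers tested, 2 were called lower, Vwf at a log2 fold change of -1.73 and Ptprb at -3.68, and 0 were called higher. The shares of all genes tested were 3.60% lower and 3.74% higher. Without control replicate 2, all 15 were tested and 15 were called lower, against 6.58% of all genes tested. The markers tested only in that fit may have passed the filter through control replicates 1 and 3 alone, where the marker sum was high. Their calls could then hardly fall the other way, so 15 of 15 is not a separate test. In control replicate 2 the markers were split. Vwf at 55.0 CPM and Ptprb at 2.87 CPM were above the APPswe libraries there, which held 13.2 to 14.4 and 0.280 to 0.562 CPM, and so was the sum of the markers. Cdh5, the adhesion protein of endothelial junctions, was at 58.3, 0.337 and 63.5 CPM in control and at 1.79, 1.23 and 1.46 CPM in APPswe. Pecam1 was at 0.0562 CPM and Emcn at 0.112 CPM in control replicate 2, both below its floor of 0.169 CPM. Tie1, Cldn5, Sox17, Robo4 and Ushbp1 had 0 counts there. Kdr at 25.5 CPM and Flt4 at 13.9 CPM were at their highest in this library, where Cdh5, Pecam1 and Emcn lay below every APPswe library. How far the endothelial transcripts bear on the falls of Flt1, Kdr and Flt4 was not tested.

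**Figure D5:**
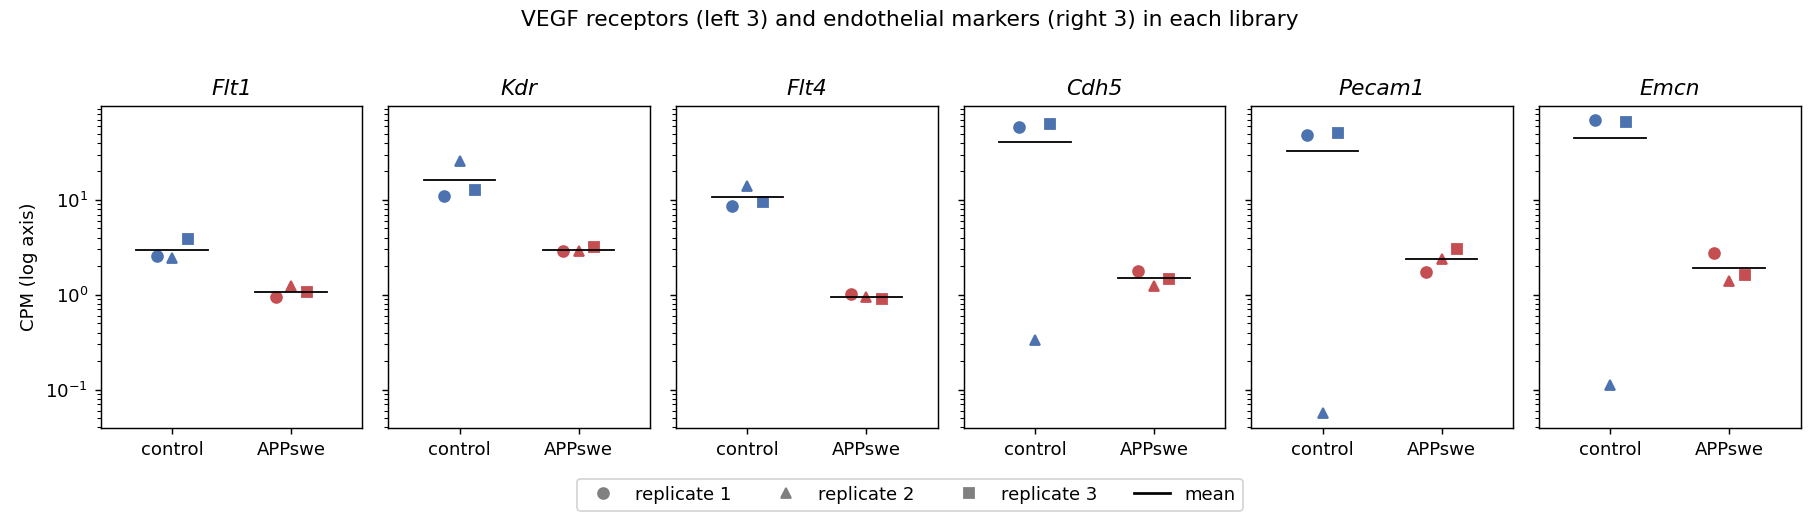
CPM (y axis, log scale, shared) of the receptors Flt1, Kdr and Flt4 and of the endothelial markers Cdh5, Pecam1 and Emcn in the 3 control (blue) and 3 APPswe (red) libraries; marker shape gives the replicate and the line the mean. Control replicate 2 (triangle) is the highest library for Kdr and Flt4, at 25.5 and 13.9 CPM, and the lowest for the 3 markers, at 0.337, 0.0562 and 0.112 CPM. The last 2 values are below the floor of 3 counts. The markers Vwf and Ptprb, not drawn, stood above every APPswe library in control replicate 2.

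Markers of other cells moved too. The lymphatic markers were low in both groups, with Prox1 at 0.394 to 0.734 CPM in control and 0.506 to 0.561 CPM in APPswe and a sum of 4 genes of 2.08 to 4.46 and 1.00 to 2.02 CPM. The 13 macrophage markers summed to 17648 to 24741 CPM in control and 12394 to 13370 CPM in APPswe. At the adjusted p alone 8 of 13 were lower and 1 was higher, where 12.0% and 10.5% of all genes tested were. The osteoblast and osteocyte markers summed to 8666 to 11470 CPM and 7927 to 8727 CPM. Of these 1 of 11 was called, Sp7, which was higher, against 3.74% of all genes tested. Once control replicate 2 was left out, 1 of these was called higher and 3 lower, and of the macrophage markers 0 higher and 2 lower. The shares of all genes tested were then 4.87% higher and 6.58% lower. Higher in APPswe were the sums of the markers of osteoclasts (158 to 290 against 719 to 731 CPM, 4 of 7 called), skeletal muscle (1.39 to 10.5 against 162 to 166 CPM, 9 of 9), fibroblasts (1319 to 2855 against 5274 to 5381 CPM, 2 of 6) and pericytes and smooth muscle (980 to 1848 against 1913 to 2027 CPM, 2 of 7). All these calls were higher, beside 3.74% of all genes tested. For pericytes and smooth muscle the median log2 fold change was -0.10, so most of its tested markers did not rise with the sum. The part of these cells in the rise of Vegfa and the falls of Vegfb, Nrp1 and Nrp2 was not tested.

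Genes that act before the receptor were counted next. Of 15 tested genes for VEGF maturation, release and sequestration, 2 were called higher and 1 lower, against backgrounds of 3.74% and 3.60%, with a median log2 fold change of 0.15. The same counts were found without control replicate 2. Mmp9, a protease that frees VEGF from matrix and an osteoclast marker as well, rose from 2.22 ± 1.49 to 126 ± 2.93 CPM, a log2 fold change of 5.83. Pcsk5, a convertase that cuts precursor proteins, rose from 3.87 ± 2.46 to 20.1 ± 0.769 CPM. Ctsd, a lysosomal protease abundant in macrophages, fell by 1.29 on the log2 scale. The calls of Mmp9 and Ctsd were kept in all 6 fits without a library, and that of Pcsk5 was lost without any one APPswe library, with an adjusted p of up to 0.0756.

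Of 9 tested hypoxia-inducible factors and oxygen sensors, 1 was called higher and 0 lower, with a median of 0.080. Egln3, a prolyl hydroxylase that is itself induced by low oxygen, was at 7.88 ± 3.02 and 18.3 ± 0.513 CPM, a log2 fold change of 1.22 with an adjusted p of 0.0236, but was called in 1 of the 6 fits without a library. Hif1a, the oxygen-regulated factor that drives Vegfa, is named here after its values were seen. It rose from 186 ± 15.0 to 293 ± 22.2 CPM, by 0.66 on the log2 scale with an adjusted p of 0.00523, below the fold needed for a call. Epas1, another factor of this list that was named after its values were seen, was lower on average in APPswe. In control replicates 1, 2 and 3 it stood at 119, 17.9 and 121 CPM, against 21.6, 20.5 and 21.9 CPM in APPswe. The groups overlapped, and at -2.01 on the log2 scale Epas1 did not pass the test (adjusted p 0.0646). Whether either factor bears on the rise of Vegfa was not tested. Of 17 tested hypoxia-inducible targets, 2 were called higher and 0 lower, with a median of 0.37. They were Angptl4, a lipase inhibitor (1.85, adjusted p 0.0415), and P4ha2, a collagen hydroxylase (1.05, adjusted p 0.0378). Each was called in 1 of the 6 fits without a library: the adjusted p of Angptl4 reached 0.124 and that of P4ha2 0.121. Both counts, 1 of 9 and 2 of 17, rest on few genes beside the background of 3.74%. Without control replicate 2, 0 of the factors and sensors were called higher and 1 lower, and 1 of the targets was called higher and 1 lower (median 0.22), against 4.87% and 6.58% of all genes. With library name style as a term in the fit, 0 of either list were called higher.

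On the receptor side, 0 of 14 tested partners and regulators were called higher and 1 lower, against backgrounds of 3.74% and 3.60%. The median log2 fold change was -0.13. The gene was Ptprb, the endothelial phosphatase VE-PTP, which fell by 3.68 on the log2 scale and was called in 6 of 6 fits without a library. Ptprb and Cdh5 of this list are also among the endothelial markers above, so this count is not separate from those. Leaving out control replicate 2, 3 of the 14 were called lower, against 6.58% of all genes tested. Of 37 tested signal transducers, 0 were called higher and 1 lower, with a median of -0.023. It was Plcg2, the phospholipase of blood cells, at a log2 fold change of -1.08, which kept its call in 2 of 6 such fits and was not called without control replicate 2. The count of 1 of 37 lies near the 3.60% of all genes tested that were called lower.

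Of 11 tested genes known to respond to VEGF in endothelial cells, 2 were called higher and 3 lower, with a median of -0.29, against backgrounds of 3.74% and 3.60%. The number called lower was 4 without control replicate 2, 1 with library name style as a term and 0 with a replicate block, and 2 stayed the number called higher in each of these. The transcription factor genes Egr3 (1.39) and Nr4a1 (1.27) rose, and both are also induced by many other signals. Angpt2, which loosens vessels, had a log2 fold change of -3.85, but its libraries stood at 44.4, 1.74 and 47.1 CPM in control and 1.79, 2.23 and 2.42 CPM in APPswe, so the groups overlapped. Esm1, a marker of sprouting tip cells, fell by 2.77. The fifth, the potassium channel subunit gene Kcne3 (-1.22), was named after its values were seen. Leaving out a library kept the call of Egr3 in 6 of 6 fits, of Nr4a1 in 4, of Esm1 in 3, and of Angpt2 and Kcne3 in 1 each. The adjusted p reached 0.151 for Angpt2 and 0.154 for Kcne3.

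Of the 12 semaphorins and plexins that share the neuropilins, 0 were called higher and 1 lower, against backgrounds of 3.74% and 3.60%. The count thus rests on 1 gene. The median log2 fold change of the list was -0.64. Sema3e, whose product guides vessels through a plexin, stood at 7.56, 17.9 and 6.15 CPM in control and 1.85, 2.01 and 2.30 CPM in APPswe. It fell by 2.36 on the log2 scale with an adjusted p of 0.0120, and lost its call without any one APPswe library, with an adjusted p of up to 0.0644. The number called lower was 3 of the 12 without control replicate 2, against 6.58% of all genes tested. Like Kdr and Flt4, Sema3e was highest in control replicate 2.

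The genes with profiles nearest to Vegfa and Kdr over the 6 libraries were found by the root mean square difference of centred log2 CPM. For Vegfa they were Ednra (0.0600), Fstl1 (0.0763) and Ptger2 (0.0833), and for Kdr they were Prrg4 (0.133), H2-T24 (0.140) and Irgm1 (0.158). The libraries were named in 2 styles in the table, with a hyphen for control replicates 1 and 2 and APPswe replicate 1 and without one for the other 3, and what the style marks is not given in the sources used here. Control replicate 2, the library that stood apart, was also the one whose name carried an S where the other 5 carried an L, and the meaning of these letters is not given either. Within the styles, the log2 difference of Vegfa was 1.37 and 1.29, that of Vegfb -1.17 and -1.23, that of Flt1 -1.04 and -1.40, that of Kdr -2.35 and -1.89, and that of Flt4 -2.93 and -2.82. Those of Nrp1 were -0.69 and -0.82, and those of Nrp2 -0.81 and -0.74. These 7 genes kept their direction in both styles, although the hyphen style held only 1 APPswe library and the other style only 1 control library. For these differences 0.5 CPM was added before logs, which makes them smaller for genes with low values. Pgf was at -0.64 and -2.68, and Vegfd changed sign, from 0.35 to -0.13, while Vegfc was at 0.11 and 0.044.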

How the data were processed

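Cultured, tdTomato-positive mouse skull cells were sequenced by the authors on the DNBseq platform in 6 libraries, 3 per genotype, and grouped by their labels. Gene-level counts were used as the authors deposited them, with no normalization. FPKM values also came from the authors, and their blank cells (397 or 716 genes per library) were read as 0. Columns of log2 fold change and p-value, deposited with them, hold the authors' own comparison and were not used. The submitters' processing notes name the build GRCm38, and the aligner and counting tool are not given in the sources used here. Without a stated strand setting, reads of a gene and of an overlapping antisense gene cannot be told apart.

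Counts were fitted in R 4.3.3 with edgeR 4.0.16 (TMM, filterByExpr, quasi-likelihood test, Benjamini-Hochberg adjustment over the 13484 genes tested), and the standard error was taken as the log2 fold change over the square root of F. The script was tested on simulated data. The members and lists were chosen with earlier results of these data known. The genes named by rule were the 10 members, up to 2 called genes each way from each list, and the 3 profiles nearest to Vegfa and to Kdr (0.5 CPM added before logs). Hif1a, Epas1, Kcne3 and the individual cell type markers fall outside it and were chosen once values were known. Floors of 3 counts and all precision from depth (17263757 to 18398392 counts) cover counting error only. No pair of libraries differed by less than sampling noise, with a chi-square per degree of freedom of 1.57 or more. The deviations of same-numbered control and APPswe libraries from their group means correlated at 0.084, -0.043 and 0.19, so the numbers were not taken as pairs. Promoter windows came from RefSeq on GRCm38.p6. Altogether 16 alternatives were run: no TMM, DESeq2 1.42.0, edgeR with DESeq2 size factors, no filter, at least 10 counts in every library, a replicate block, library name style as a term, limma 3.58.1 on log2(FPKM + 1) or log2(FPKM + 0.1) with at least 0.5 FPKM, the former also without that filter, and each library left out in turn.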

Additional observations from a re-analysis of the deposited data

How the results depend on the processing

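Over the 16 alternatives, Vegfa stayed called higher and Vegfb, Kdr and Flt4 called lower in all 16, but on log2(FPKM + 1) the log2 fold changes were -1.25 for Kdr and -1.28 for Flt4 in place of -2.45 and -3.49, since the added 1 is large beside FPKM values of this size, and on log2(FPKM + 0.1) they were -2.09 and -2.83. For Pgf, limma gave -1.21 and -1.16 in place of -2.37, and the cause was not tested. Flt1 was called in 10 of the 14 that tested it; limma on log2(FPKM + 1) without the filter left its log2 fold change at -0.30, below the fold for a call, and the other 3 losses were those without an APPswe library. The number of members called lower ranged from 3 to 5, and the number called higher was 1 throughout. Leaving out each library in turn gave log2 fold changes of -0.067 to 0.24 for Vegfc and -0.10 to 0.22 for Vegfd, and the negative values came without control replicate 2; the cause was not tested. Pgf was called in 1 of 16. With a replicate block, 4 members were again called lower and 1 higher, while over all genes 384 were called higher and 324 lower in place of 504 and 486; of the lists, it took the calls lower among VEGF-response genes from 3 to 0 and those higher among hypoxia targets from 2 to 1. APPswe replicate 1 correlated better with control replicate 2 (0.097) than with its own number (0.084). The strict filter of 10 counts gave 320 and 412 calls, limma on log2(FPKM + 1) 324 and 187, limma on log2(FPKM + 0.1) 496 and 287, limma without the filter 305 and 170, and leaving out control replicate 2 gave 670 and 905. The other fits without a library gave 281 to 440 calls higher and 230 to 392 lower. Without TMM the split was 576 and 413 and the median of all genes 0.068, and Vegfa, Vegfb, Kdr, Flt4, Nrp1 and Nrp2 kept their directions. Few counts limit Flt1 and Flt4 in APPswe, at 16 to 22 each.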
